A study of Caenorhabditis elegans with 20 samples.

Results

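Transcripts of hermaphrodite whole animals were compared between 15 and 9.5 hr of feeding, a window in the later part of the first larval stage (L1) of *Caenorhabditis elegans*. Levels in FPKM, which are fragment counts scaled for transcript length and for the number of fragments mapped, were taken for each gene from the authors' 2 tables, and the change was computed as log2 of the 15 hr FPKM plus 1 over the 9.5 hr FPKM plus 1. Genes with at least 5 FPKM at one of the times were compared, which gave 12489 of the 19861 named entries. Of these, 10753 had at least 5 FPKM at both times, 803 only at 15 hr and 933 only at 9.5 hr. At the limit, Y48B6A.10 was just inside with 5.0008 FPKM at its higher time and F28G4.3 just outside with 4.99993 FPKM.

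A larva that hatches without food arrests, and feeding restarts development. During L1 the ventral P blast cells divide and give rise to the postembryonic motor neurons of the ventral cord, the seam cells and the mesoblast M divide, and Z1 and Z4 start to build the somatic gonad. Near the end of the stage the epidermis and the pharynx make the cuticle of the next stage beneath the old one, which is then shed. Cuticle collagens are known to be transcribed in successive waves within each moulting cycle, and the hedgehog-related families and many proteases and protease inhibitors also cycle with the moult.

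The 15 hr group had 2 samples of dissociated, unsorted cells of strain DZ685, whose genotype combines *xol-1(y9)* with the integrated array *rdIs4*, an *ehn-3a* promoter driving Venus fluorescent protein in Z1/Z4 and their descendants. The 9.5 hr group had 3 samples of dissociated, unsorted cells of *xol-1(y9)* hermaphrodites without the array. Both groups therefore share the *xol-1* mutation, which removes XO animals, and both came from larvae that hatched in starvation and were then fed. Whole males, used below for comparison, came from DZ683 at both times (2 samples at 15 hr and 3 at 9.5 hr), whose XX animals are turned into males by the temperature-sensitive allele *tra-2(ar221)* and which also has *xol-1(y9)* and *rdIs4*. The times were processed in separate Cuffdiff runs and differ in strain in hermaphrodites, so that time, run and strain cannot be told apart in the hermaphrodite samples alone. A single pooled FPKM was available for each group. No difference below therefore has a replicate check, no test was run, and "past the cutoff" means an absolute log2 change of at least 2, which is 4-fold on the scale of FPKM plus 1, so that fold changes of low genes are understated.

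The strain difference bears on *unc-119*, a gene of axon development that is widely used as a rescue marker for transgenes (III:10906371-10908761, ce10). It had 365 FPKM at 15 hr, against 48.9 FPKM at 9.5 hr, a change of 2.87. Males, which carry the array at both times, had 428 FPKM at 15 hr and 549 FPKM at 9.5 hr. The gene is thus high in the 3 whole-animal groups with *rdIs4* and low in the group without it, and its change in hermaphrodites cannot be told apart from the difference in strain. *xol-1* was listed at 0 in every group. *tra-2* had 34.3 FPKM at 15 hr and 38.9 FPKM at 9.5 hr in hermaphrodites.

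Most transcripts differed little between the times. The median change was -0.04, the first and last quartiles were -0.35 and 0.32, and 10409 genes (83.3%) lay within 1 log2 unit of 0. Past the cutoff, 514 genes were higher at 15 hr, which is 4.12% of the genes compared, and 178 were lower, which is 1.43%. Higher genes had a median of 44.14 FPKM at 15 hr, with 109 of the 514 under 20 FPKM. Lower genes had a median of 12.7 FPKM at 9.5 hr, and 113 of the 178 were under 20 FPKM there. Together the 514 higher genes made up 6.004% of the summed FPKM at 15 hr, against 0.431% at 9.5 hr. With the changes centred on the ribosomal protein genes in place of the deposited scale, 830 genes were higher and 105 lower.

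How a gene entered the comparison bears on these counts. Of the higher genes, 144 had at least 5 FPKM at both times and 370 only at 15 hr, and of the lower genes 39 had it at both times and 139 only at 9.5 hr. Low levels also differed between the groups as a whole. In families that few larval cells use, the 222 *srh* chemoreceptor genes had a median of 0.252 FPKM at 15 hr and 1.39 FPKM at 9.5 hr, and the 192 *str* chemoreceptor genes 0.318 and 1.26 FPKM at the same times. In males the *srh* medians were 0.256 FPKM at 15 hr and 0.921 FPKM at 9.5 hr. The 30 major sperm protein genes and the 6 vitellogenin genes, which mark adult germ cells and adult intestine, were all under 5 FPKM at both times, with highest values of 1.10 and 1.03 FPKM at 15 hr and 3.35 and 2.46 FPKM at 9.5 hr. The floor of these families was thus higher at 9.5 hr, and its part in the lower calls among low genes was not tested.

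**Figure D1:**
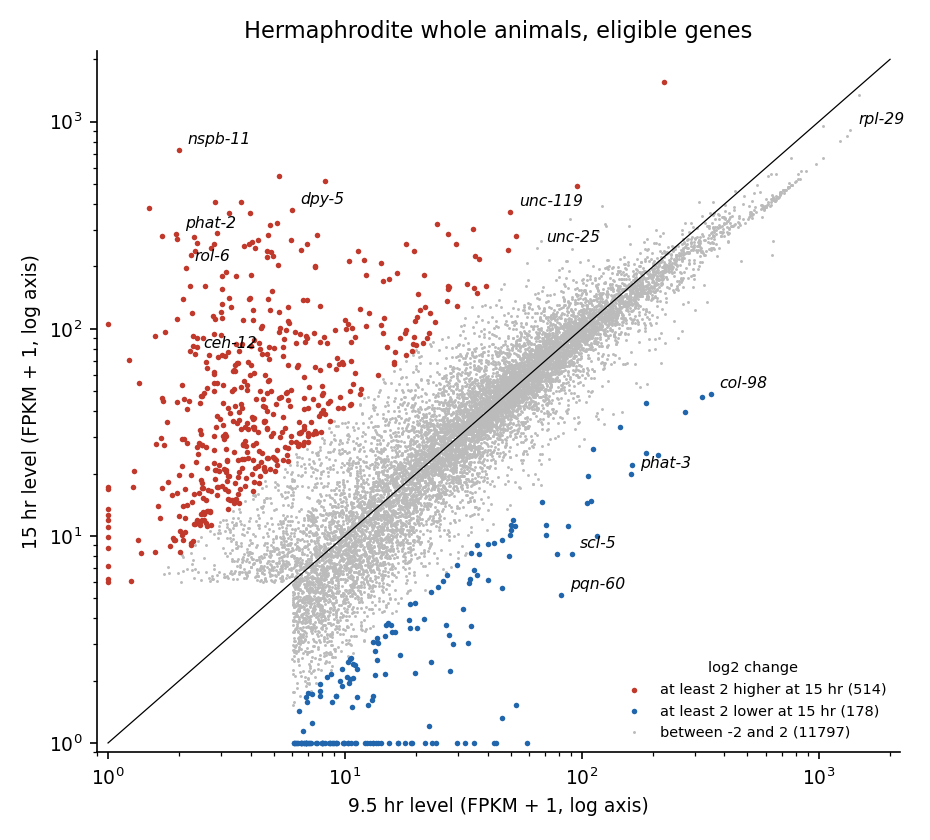
Level of each compared gene in hermaphrodite whole animals at 15 hr (vertical, FPKM plus 1, log axis) against 9.5 hr (horizontal, same scale), with the 514 genes at least 2 log2 units higher at 15 hr in red, the 178 lower in blue and the rest in grey, and the line of equal levels in black. Red points reach high levels at 15 hr and include *rol-6*, at 197 FPKM at 15 hr and 1.14 FPKM at 9.5 hr, while most blue points are low at both times.

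Gene lists of known function differed widely from one another. Over all compared genes the median change was -0.04, while it was 2.42 for hedgehog-related genes, 2.21 for cuticle collagens, 0.98 for ventral cord motor neuron determinants and 0.88 for moulting enzymes and regulators. Among lists of differentiated tissue the medians were 0.69 for coelomocytes, 0.27 for pharynx, 0.21 for intestine and 0.00 for muscle. Below the median of all genes were DNA replication at -0.39, neuropeptides at -0.53 and ribosomal proteins at -0.61. These last lists depend on the scale: centring on the ribosomal protein genes adds the size of their median to every change and turns the medians of DNA replication and neuropeptides positive. In bulk samples such as these, fewer cells of a type and less RNA per cell cannot be told apart.

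**Figure D2:**
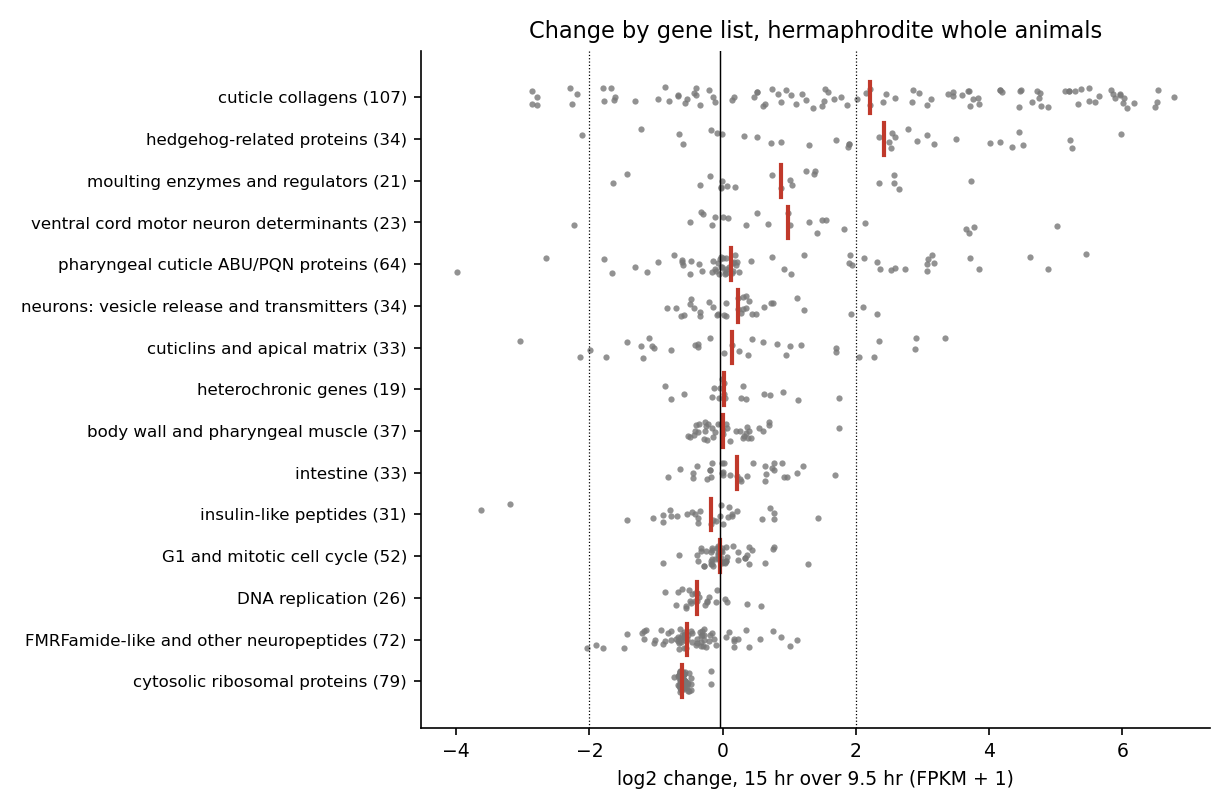
Change of every compared member (grey points) of 15 gene lists in hermaphrodite whole animals, log2 of 15 hr over 9.5 hr, with the number of compared members in brackets, the list's median as a red bar, the median of all compared genes as a solid line and the cutoffs of 2 and -2 as dotted lines. Collagens and hedgehog-related genes spread over both cutoffs with medians of 2.21 and 2.42, while the 79 ribosomal protein genes sit close together around -0.61.

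Of the lists examined, cuticle collagens held the most genes that were higher at 15 hr. Of 175 collagen genes, 107 were compared, of which 57 were past the cutoff as higher (4.12% of all compared genes were) and 7 as lower, while 43 lay between. Summed over all 175 genes, collagen transcripts came to 9745 FPKM at 15 hr, against 2694 FPKM at 9.5 hr. The median change of 2.21 depends on which members are counted: it was 1.19 over the 45 collagens with at least 5 FPKM at both times, of which 15 were higher and 5 lower.

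A group of body-shape collagens picked after their values were seen (*rol-6*, *rol-8*, *dpy-5*, *dpy-13*, *lon-3* and the *sqt* genes) had a median change of 5.58 over 8 genes. Only 3 of the 8 had at least 5 FPKM at both times, with a median of 3.76, so that the filter itself favours a gain. The group was drawn up with 11 genes, of which *dpy-17*, *bli-1* and *bli-2* were under 5 FPKM at both times. *rol-6*, in which mutations cause animals to roll (II:8733000-8734264, ce10), had 197 FPKM at 15 hr, against 1.14 FPKM at 9.5 hr, a change of 6.53. The dumpy gene *dpy-13* (IV:4235607-4236699) had 362 FPKM at 15 hr, against 2.98 FPKM at 9.5 hr. Another dumpy collagen, *dpy-5* (I:5432161-5433059), had 372 FPKM at 15 hr, against 4.97 FPKM at 9.5 hr. All of these were under 5 FPKM at 9.5 hr and at 197 to 372 FPKM at 15 hr. The squat genes were similar, with changes of 5.21 for *sqt-1*, 5.51 for *sqt-2* and 5.66 for *sqt-3*. *rol-8* had 235 FPKM at 15 hr and 18.5 FPKM at 9.5 hr, and *lon-3*, which affects body length, had 91.2 FPKM at 15 hr and 5.82 FPKM at 9.5 hr. Of the collagens known only by number, *col-17* (II:4866439-4867569) had the largest change of the family, 6.78, with 259.6 FPKM at 15 hr and 1.38 FPKM at 9.5 hr. *col-73*, which lies close by on chromosome II (4872108-4873122), had 244 FPKM at 15 hr and 1.73 FPKM at 9.5 hr. *col-12* and *col-13*, which are near-identical neighbours so that their reads may be split between them, had changes of 4.71 and 3.85. Collagens that belong to later stages did not share this gain: *col-19*, a marker of the adult cuticle, had 0.879 FPKM at 15 hr and 1.52 FPKM at 9.5 hr, and *bli-1* and *bli-2*, which build the struts of the adult cuticle, were under 5 FPKM at both times.

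A further set of collagens went only part of the way. *dpy-2*, *dpy-3*, *dpy-7*, *dpy-8*, *dpy-9* and *dpy-10* encode the collagens of the annular furrows of the cuticle, and were grouped here after their values were seen. *dpy-7* (X:7536421-7537747), an epidermal marker, had 65.3 FPKM at 15 hr and 26.8 FPKM at 9.5 hr, a change of 1.25. *dpy-10* had 42.5 FPKM at 15 hr and 16.02 FPKM at 9.5 hr, a change of 1.35. Only *dpy-8* passed the cutoff among the 6, with 70.9 FPKM at 15 hr and 8.30 FPKM at 9.5 hr, a change of 2.95. At 9.5 hr the furrow collagens were at 8.30 to 30.7 FPKM, and *rol-6* and the squat collagens were at 1.14 to 5.93 FPKM. The groups overlapped there, because *rol-8* of the body-shape collagens had 18.5 FPKM at 9.5 hr, above *dpy-8* and *dpy-10*.

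Another set went the other way. *col-98* (III:13018834-13020125) had 47.2 FPKM at 15 hr, against 351 FPKM at 9.5 hr, a change of -2.87. *col-149* (V:10290018-10292843) had 45.7 FPKM at 15 hr and 320.2 FPKM at 9.5 hr. *col-103* (IV:762420-763678) had 38.7 FPKM at 15 hr and 272 FPKM at 9.5 hr. At 9.5 hr these were above every furrow collagen, and they gave the largest losses in FPKM of all genes past the cutoff. *col-176*, *col-80*, *col-101* and *col-181* were the remaining collagens past the cutoff as lower, with changes of -2.86, -2.19, -2.30 and -2.26, the last 2 of them at 10.3 and 8.51 FPKM at 9.5 hr. The entry Y69H2.14, which current RefSeq annotation (WBcel235) names *col-42*, had 24.3 FPKM at 15 hr and 186 FPKM at 9.5 hr, a change of -2.89.

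**Figure D3:**
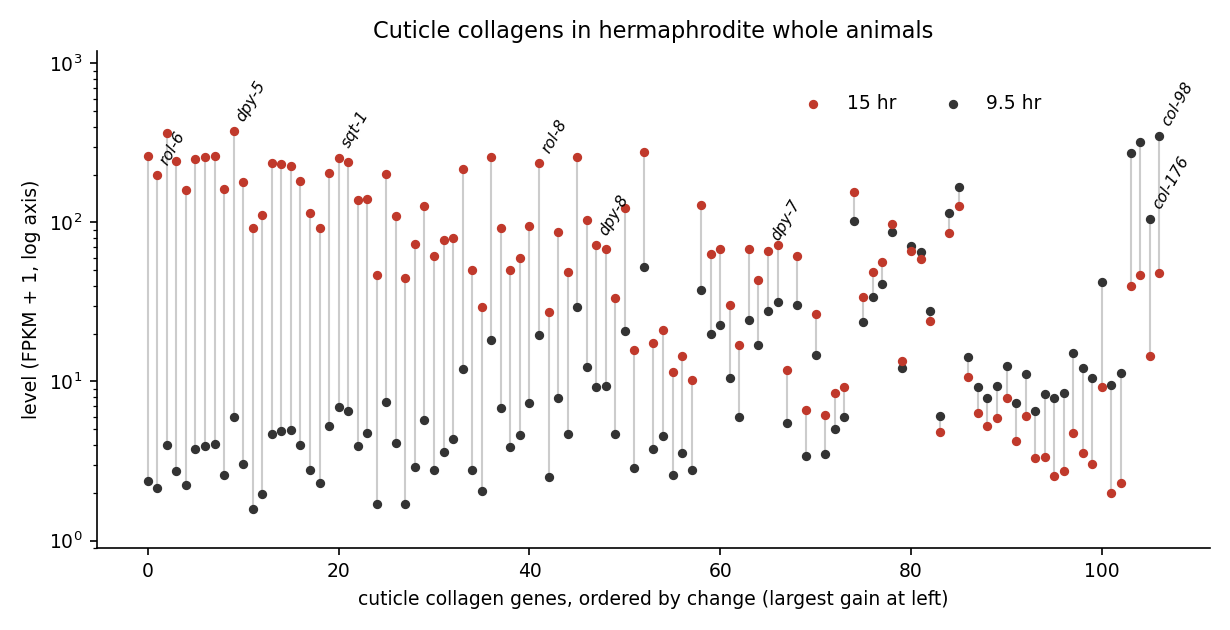
Levels of the 107 compared cuticle collagens in hermaphrodite whole animals at 15 hr (red) and 9.5 hr (black), in FPKM plus 1 on a log axis, each gene a vertical pair and the genes ordered by change. Pairs at the left, such as *rol-6* and *dpy-5*, are far apart, with *rol-6* at 197 FPKM at 15 hr and 1.14 FPKM at 9.5 hr, *dpy-7* in the middle was at 26.8 FPKM at 9.5 hr, and the pairs at the far right, such as *col-98*, are lower at 15 hr.

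Other components of the extracellular matrix were mixed. Among cuticlins and apical matrix genes, 33 of 42 were compared, with a median of 0.14. Of these, 6 were higher and 2 lower past the cutoff (4.12% and 1.43% of all compared genes were). *cutl-19*, a cuticlin-like gene, had 103.9 FPKM at 15 hr and 9.33 FPKM at 9.5 hr, a change of 3.34, and *cutl-8* and *cutl-5* had changes of 2.91 and 2.88. Over the 23 with at least 5 FPKM at both times, 1 was higher and 1 lower. The 2 lower genes were *dpy-6* and *fbn-1*. *dpy-6*, which encodes a mucin-like protein, had 4.62 FPKM at 15 hr, against 45.2 FPKM at 9.5 hr, a change of -3.04. *fbn-1*, a fibrillin-related gene, had 10.3 FPKM at 15 hr and 49.2 FPKM at 9.5 hr, a change of -2.15. *let-653*, whose product lines the excretory duct and other epithelia during shaping, stopped just short of the cutoff with 5.66 FPKM at 15 hr and 25.6 FPKM at 9.5 hr. *noah-1* and *noah-2*, which link the epidermis to its apical matrix, had changes of 0.14 and 0.02.

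Hedgehog-related genes encode secreted proteins of the warthog (*wrt*), groundhog (*grd*) and ground-like (*grl*) families, most of which are made in epidermal and other cuticle-bearing cells. Of 58 genes, 34 were compared, and 18 were higher and 1 lower past the cutoff (4.12% and 1.43% of all compared genes were). *grl-16* (I:572180-575122) had 268 FPKM at 15 hr, against 3.28 FPKM at 9.5 hr, a change of 5.98. *grd-14* had 89.3 FPKM at 15 hr and 1.38 FPKM at 9.5 hr, and *grl-21* had 111 FPKM at 15 hr and 2.02 FPKM at 9.5 hr. *grl-5* had 43.5 FPKM at 15 hr and 0.952 FPKM at 9.5 hr. By family, 7 of 13 compared *grl*, 6 of 9 *wrt* and 4 of 10 *grd* genes were past the cutoff as higher, most of which had 5 FPKM only at 15 hr. *grd-10*, a seam cell gene, had 89.5 FPKM at 15 hr and 209.7 FPKM at 9.5 hr, and *grd-3* had 32.5 FPKM at 15 hr and 144 FPKM at 9.5 hr, a change of -2.12. Only 12 of the 34 had at least 5 FPKM at both times, and the median over those was 0.16, with 2 higher and 1 lower.

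The patched-related genes encode membrane proteins of the family that includes the hedgehog receptor of flies, and several act in moulting. Of 27 compared, 3 were higher and 1 lower past the cutoff (4.12% and 1.43% of all compared genes were), with a median of 0.38. None of the 22 with at least 5 FPKM at both times passed it. *ptr-19*, *ptr-20* and *ptr-16* had changes of 2.39, 2.26 and 2.12. *ptr-22* had 1.04 FPKM at 15 hr and 9.48 FPKM at 9.5 hr, a change of -2.36. *ptc-1* and *ptc-3*, the patched homologues themselves, had changes of -0.22 and 0.38.

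Genes that carry out the moult were higher at 15 hr in part. All 21 listed genes were compared, and 5 were higher and none lower past the cutoff (4.12% and 1.43% of all compared genes were). Over the 18 with at least 5 FPKM at both times, 2 were higher and none lower, and the median was 0.46. *bli-5*, a protease inhibitor needed for normal moulting, had 31.5 FPKM at 15 hr and 1.44 FPKM at 9.5 hr, a change of 3.74. The metalloprotease gene *nas-6* had 44.97 FPKM at 15 hr and 6.34 FPKM at 9.5 hr. *mlt-10* and *mlt-9*, both required to shed the old cuticle, each had a change of 2.57, and *qua-1*, a hedgehog-related gene of the same process, had 2.35. The proteases of ecdysis itself stayed below the cutoff, with changes of 1.04 for *nas-36* and 1.37 for *nas-37*. *nhr-23*, the nuclear receptor that activates much of the moulting programme, was lower at 15 hr with 11.1 FPKM, against 36.8 FPKM at 9.5 hr, a change of -1.64. The nuclear receptor *nhr-25* had 34.6 FPKM at 15 hr and 33.03 FPKM at 9.5 hr. The steps of cuticle synthesis also differed: *chs-2*, the chitin synthase of the pharynx, had 52.8 FPKM at 15 hr and 2.06 FPKM at 9.5 hr, a change of 4.14, while the collagen-modifying enzyme genes *dpy-18*, *phy-2* and *pdi-2* had changes of -0.23, 0.16 and -0.54.

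None of the 19 heterochronic genes, which set the succession of larval stages, passed the cutoff, and their median change was 0.03. Over all compared genes 4.12% were higher and 1.43% lower, so that a count of none in a list this short says little. *lin-42*, the period homologue whose transcript cycles with the moults, had the largest change, with 57.3 FPKM at 15 hr and 16.5 FPKM at 9.5 hr (1.74). *hbl-1*, a zinc finger regulator of the second stage, had 92.1 FPKM at 15 hr and 41.6 FPKM at 9.5 hr. *lin-28*, an RNA-binding protein of early larval fates, had 113 FPKM at 15 hr and 207 FPKM at 9.5 hr, a change of -0.87. The transcript of *lin-14*, the regulator of first-stage fates, had 110.3 FPKM at 15 hr and 108 FPKM at 9.5 hr.

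The pharynx, which renews its own cuticle at each moult, held some of the largest changes of either sign. The 6 *phat* genes, which encode secreted proteins of the pharyngeal glands and were grouped after their values were seen, split. *phat-2* (I:5046399-5048021) had 285 FPKM at 15 hr, against 0.940 FPKM at 9.5 hr, a change of 7.21. *phat-5*, *phat-1* and *phat-4* had changes of 5.15, 4.27 and 3.09. *phat-3* (V:4043901-4044936) went the other way with 18.8 FPKM at 15 hr and 161 FPKM at 9.5 hr, a change of -3.03, and *phat-6* had 133 FPKM at 15 hr and 337 FPKM at 9.5 hr. *pqn-75*, also known from gland cells, had a change of -2.65. The contractile genes of the organ differed little, with changes of 0.20 for the myosin gene *myo-2* and 0.27 for the troponin gene *tnc-2*. In the whole pharynx list, 4 of 17 genes were higher and 2 lower (4.12% and 1.43% of all compared genes were), with a median of 0.27.

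Of the glutamine- and asparagine-rich ABU and PQN genes, some of which encode proteins of the pharyngeal cuticle, 64 of 83 were compared, and 16 were higher and 2 lower (4.12% and 1.43% of all compared genes were), with a median of 0.12. Over the 42 with at least 5 FPKM at both times, 1 was higher and 1 lower. All 4 compared *abu* genes were among the higher ones, and none of them had 5 FPKM at 9.5 hr. *abu-10* had 131 FPKM at 15 hr and 2.01 FPKM at 9.5 hr, a change of 5.46. *pqn-95* had 109.7 FPKM at 15 hr and 2.73 FPKM at 9.5 hr. The PQN genes as a whole are a sequence class and not a tissue class, and 35 of the 60 compared had positive changes. The lowest change of the list, -3.98, was that of *pqn-60* (V:504032-506006), with 4.18 FPKM at 15 hr and 80.9 FPKM at 9.5 hr.

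Small secreted peptides were prominent among the gains. The *nspb* genes encode short nematode-specific peptides, and all 9 that were compared, a group picked after its values were seen, were past the cutoff as higher. Of these only 1 had at least 5 FPKM at both times, so that the filter itself favours a gain, and the other 3 of the 12 were under 5 FPKM at both. *nspb-11* (II:12907336-12907630) had the largest change of all compared genes, 8.51, with 726 FPKM at 15 hr and 0.994 FPKM at 9.5 hr. Its family came to a sum of 1957 FPKM at 15 hr, against 28.4 FPKM at 9.5 hr. The *fipr* genes, related to peptides induced by fungal infection and also picked afterwards, were divided. Of 19 compared, 9 were higher and 4 lower (4.12% and 1.43% of all compared genes were). *fipr-6* (V:10231242-10231510) had 278 FPKM at 15 hr, against 1.32 FPKM at 9.5 hr, a change of 6.91, and the nearby *fipr-7* had 227 FPKM at 15 hr and 1.25 FPKM at 9.5 hr. The 4 lower *fipr* genes were all listed at 0 at 15 hr. Both families hold similar short copies, among which reads may be split. In the wider list of antimicrobial and stress peptides, 130 of 358 genes were compared, and the median was 0.12. Of these, 13 were higher and 8 lower, beside the same 4.12% and 1.43% of all compared genes. The caenacin gene *cnc-2* had 2.03 FPKM at 15 hr and 32.04 FPKM at 9.5 hr, and the lectin-domain gene *clec-230* had 80.7 FPKM at 15 hr and 1.37 FPKM at 9.5 hr.

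Outside the cuticle, 5 of 23 compared genes of the list for ventral cord motor neuron determinants were higher (4.12% of all compared genes were). The list also holds regulators of other neurons, among them *mec-3* and *unc-86* of touch receptor neurons, and its 1 lower gene was *mec-3*. In L1 the P blast cells produce the VA, VB, VD, AS and other motor neurons, which join the DA, DB and DD neurons of the embryo, and their classes are set by homeodomain and other transcription factors. *ceh-12*, a homeobox gene of VB neurons (I:5840292-5841889), had 74.5 FPKM at 15 hr, against 1.32 FPKM at 9.5 hr, a change of 5.03. *unc-4*, a homeobox gene of the VA class (II:9897801-9900198), had 84.7 FPKM at 15 hr and 5.24 FPKM at 9.5 hr. *unc-3*, which specifies cholinergic motor neurons (X:14773469-14783495), had 89.2 FPKM at 15 hr and 5.94 FPKM at 9.5 hr. *unc-55*, a nuclear receptor gene that distinguishes VD from DD neurons (I:7899038-7903778), had 84.9 FPKM at 15 hr and 5.79 FPKM at 9.5 hr. These 4 genes were at 74.5 to 89.2 FPKM at 15 hr and at most 5.94 FPKM at 9.5 hr, with changes of 5.03, 3.78, 3.70 and 3.66. *unc-30*, the homeobox gene that sets GABA identity in DD and VD neurons, had 83.8 FPKM at 15 hr and 18.3 FPKM at 9.5 hr, a change of 2.14. In the whole list, 22 genes had at least 5 FPKM at both times, with a median change of 0.83 over those.

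Genes of GABA transmission, picked after their values were seen, were read beside *unc-30* and *unc-55*. *unc-47*, the vesicular GABA transporter, had 53.4 FPKM at 15 hr and 9.87 FPKM at 9.5 hr, a change of 2.32. *unc-46*, which sorts that transporter to vesicles, had 68.2 FPKM at 15 hr and 15.0 FPKM at 9.5 hr, a change of 2.11. *unc-25*, the glutamate decarboxylase that makes GABA (III:12942546-12949798), had 245 FPKM at 15 hr and 63.97 FPKM at 9.5 hr, a change of 1.92, just under the cutoff. In the list for vesicle release and transmitters, *unc-47* and *unc-46* were the 2 of 34 genes past the cutoff (4.12% of all compared genes were higher). Genes used by all neurons had smaller changes. The synaptobrevin gene *snb-1* had 182 FPKM at 15 hr and 193 FPKM at 9.5 hr, the syntaxin gene *unc-64* had 235 FPKM at 15 hr and 227 FPKM at 9.5 hr, and the SNAP-25 gene *ric-4* had a change of 0.05. The synaptic vesicle genes *rab-3* and *snt-1* had changes of 0.63 and 0.36. Other transmitter classes were also flat or lower, with changes of 0.30 for *unc-17* (acetylcholine), -0.71 for *eat-4* (glutamate) and -0.83 for *tph-1* (serotonin). Over the 34 neuronal genes the median was 0.23. *ric-3*, a chaperone of acetylcholine receptors, had 124 FPKM at 15 hr and 52.8 FPKM at 9.5 hr.

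None of the 6 Hox genes, which pattern the body along its length and were grouped after their values were seen, passed the cutoff (4.12% of all compared genes were higher and 1.43% lower). *egl-5* had 72.8 FPKM at 15 hr and 19.9 FPKM at 9.5 hr (1.82), *lin-39* had 126 FPKM at 15 hr and 44.4 FPKM at 9.5 hr (1.49), and *mab-5* had 103.8 FPKM at 15 hr and 50.9 FPKM at 9.5 hr (1.01). *ceh-13* had a change of 1.49, and *nob-1* and *php-3* had 0.09 and 0.31. *vab-7*, the even-skipped homologue of DB neurons, had a change of 1.42. In the opposite direction, *mec-3*, the LIM homeobox gene of touch receptor neurons (IV:10458843-10461869), had 9.67 FPKM at 15 hr, against 49.3 FPKM at 9.5 hr, a change of -2.24. Its regulator *unc-86* had 52.98 FPKM at 15 hr and 65.2 FPKM at 9.5 hr.

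**Figure D4:**
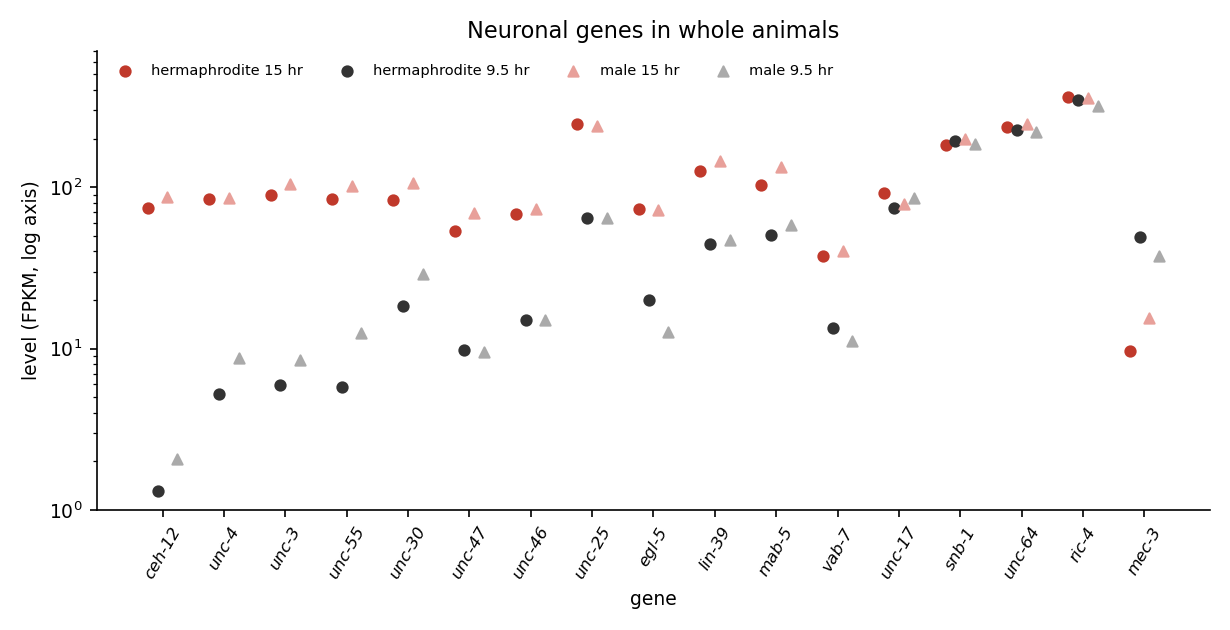
Levels in FPKM (log axis) of 17 neuronal genes in hermaphrodite whole animals (circles, 15 hr red and 9.5 hr black) and male whole animals (triangles, 15 hr pink and 9.5 hr grey). Motor neuron genes from *ceh-12* to *unc-25* are separated by time in both sexes, *snb-1*, *unc-64* and *ric-4* overlap, and *mec-3* is lower at 15 hr with 9.67 FPKM in hermaphrodites, against 49.3 FPKM at 9.5 hr.

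Neuropeptide genes were mostly a little lower at 15 hr. Of 72 compared, 59 had negative changes, and the median was -0.53, against -0.04 over all compared genes. Past the cutoff none was higher and 1, *nlp-28*, was lower (4.12% and 1.43% of all compared genes were). Their sum over 75 genes was 7637 FPKM at 15 hr and 10373 FPKM at 9.5 hr. The most abundant FMRFamide-like peptide gene of those named, *flp-1*, had 353 FPKM at 15 hr and 524 FPKM at 9.5 hr. *egl-3* and *egl-21*, which encode the convertase and carboxypeptidase that process these peptides, had changes of -0.58 and -0.63. *nlp-28* and *nlp-27*, antimicrobial peptide genes of the epidermis in spite of their names, had the changes -2.04 and -1.80. Among 31 compared insulin-like genes none was higher and 2 were lower (4.12% and 1.43% of all compared genes were), with a median of -0.18. *ins-20* (II:6010818-6011295) had 1.24 FPKM at 15 hr and 26.7 FPKM at 9.5 hr, while males had 5.07 FPKM at 15 hr and 4.196 FPKM at 9.5 hr. *ins-2* was listed at 0 at 15 hr and had 8.17 FPKM at 9.5 hr. Genes of starvation and of the DAF-16 response, which starved larvae express, had a median of -0.27 over 26 genes. The small heat shock gene *hsp-12.6* had 5.50 FPKM at 15 hr and 15.1 FPKM at 9.5 hr, and only *dod-3*, with a change of -2.13, passed the cutoff.

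In the mesoderm 2 regulators of the M lineage, of 13 genes compared, were past the cutoff as higher (4.12% of all compared genes were). *sem-2*, a Sox gene that promotes the sex myoblast fate (I:5204555-5215221), had 69.2 FPKM at 15 hr and 9.59 FPKM at 9.5 hr, a change of 2.73. *fozi-1*, a zinc finger gene of the same lineage, had 39.8 FPKM at 15 hr and 5.74 FPKM at 9.5 hr, a change of 2.60. Both genes are known from other tissues too. The M lineage marker *hlh-8* had 6.10 FPKM at 15 hr and 7.37 FPKM at 9.5 hr. Sarcomere genes differed little: none of 37 passed the cutoff (4.12% of all compared genes were higher and 1.43% lower). The myosin genes *unc-54* and *myo-3* had changes of -0.27 and 0.00. The largest of the list, *tnt-3*, a troponin T gene, had 129.5 FPKM at 15 hr and 37.9 FPKM at 9.5 hr.

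Markers of the other tissues were present at both times. The counts past the cutoff in these short lists stand beside 4.12% higher and 1.43% lower over all compared genes. Among intestinal genes, *elt-2*, the endodermal GATA factor, had 5.82 FPKM at 15 hr and 3.95 FPKM at 9.5 hr, and none of 33 compared passed the cutoff. The lysozyme gene *lys-4* had the largest change there, 1.68. Coelomocyte genes had a median change of 0.69 over 7 genes, with none past the cutoff, and *lgc-26* had 200.3 FPKM at 15 hr and 110.0 FPKM at 9.5 hr. Epidermal regulators had changes of -0.10 for *lin-26* and -0.57 for *elt-3*, while the epidermal markers *wrt-2* and *dpy-7* had 2.54 and 1.25. The median of 22 seam and epidermal genes was -0.24, with 1 higher and 1 lower past the cutoff (4.12% and 1.43% of all compared genes were). The higher gene was *wrt-2*, with 20.3 FPKM at 15 hr and 2.67 FPKM at 9.5 hr. The lower gene was *nhr-74*, with 0.742 FPKM at 15 hr and 6.02 FPKM at 9.5 hr, a change of -2.01. In the germline list, none of 23 passed the cutoff, and the P granule helicase gene *glh-1* had 73.5 FPKM at 15 hr and 40.8 FPKM at 9.5 hr. Somatic gonad genes, made by very few cells of the animal, had a median of 0.13 over 18 genes with none past the cutoff. *ckb-3* had 10.1 FPKM at 15 hr and 17.8 FPKM at 9.5 hr, and the Notch pathway genes *lin-12* and *lag-2* had changes of 0.90 and 1.08.

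Genes of growth and division differed within narrow limits. All 79 compared genes for cytosolic ribosomal proteins were lower at 15 hr on the deposited scale, with changes between -0.74 and -0.18. *rpl-29*, among the most abundant transcripts, had 909.5 FPKM at 15 hr and 1357 FPKM at 9.5 hr. Their sum over 80 genes was 34308 FPKM at 15 hr and 52091 FPKM at 9.5 hr. The summed FPKM of all genes differed by much less, at 693116 at 15 hr and 702257 at 9.5 hr, and the level at the 99.9th percentile of all entries was 516 FPKM at 15 hr and 748 FPKM at 9.5 hr. Of 26 DNA replication genes 22 had negative changes and none passed the cutoff (4.12% of all compared genes were higher and 1.43% lower). All 6 subunits of the MCM helicase had changes between -0.86 and -0.46. *mcm-6* had 67.1 FPKM at 15 hr and 122.5 FPKM at 9.5 hr. In males the median change was -0.01 for the same 26 genes and -0.20 for the 6 MCM subunits. The 52 other cell cycle genes had a median of -0.04 in hermaphrodites and 0.35 in males. *cdc-25.2*, a phosphatase that drives mitosis, had 53.8 FPKM at 15 hr and 21.5 FPKM at 9.5 hr, *cyd-1*, cyclin D, had 9.24 FPKM at 15 hr and 18.1 FPKM at 9.5 hr, and the cell cycle inhibitor gene *cki-1* had 171 FPKM at 15 hr and 99.3 FPKM at 9.5 hr. Histone genes, which the libraries could hold because poly(A) selection was omitted, had a median of -0.06 over 40 genes. Many histone genes are near-identical, so that single values are uncertain.

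Several of the largest gains belonged to genes that the tables give by sequence name. R12E2.14 (I:4149983-4150636) had 409.8 FPKM at 15 hr, against 1.83 FPKM at 9.5 hr, and R12E2.7 (I:4153959-4154444) had 359 FPKM at 15 hr and 2.23 FPKM at 9.5 hr. R12E2.15 (I:4148872-4149431), beside them and named after its value was seen, had 381 FPKM at 15 hr and 0.487 FPKM at 9.5 hr. C02E7.7 (V:4918140-4918571) had 546 FPKM at 15 hr and 4.24 FPKM at 9.5 hr, and its neighbour C02E7.6 (V:4919193-4919567) had 516 FPKM at 15 hr and 7.26 FPKM at 9.5 hr. Of the 514 higher genes, 123 (23.9%) had another higher gene as the adjacent compared gene on either side along the chromosome. Of the 178 lower genes, 17 (9.55%) had a lower gene there. Over all compared genes 4.12% were higher and 1.43% lower. The share of all compared genes with such a neighbour on either side was not computed. T25E4.1 and T06E4.10, which current RefSeq names *idpc-7*, had changes of 6.67 and 6.65, and an entry that the table names only as cuticlin (V:13415049-13417591) had 409.7 FPKM at 15 hr and 2.63 FPKM at 9.5 hr. The largest gain in FPKM was that of C05G5.7, whose locus spans X:14743601-14743711, with 1562 FPKM at 15 hr and 220.4 FPKM at 9.5 hr. Males had 1975 FPKM of it at 15 hr and 1009 FPKM at 9.5 hr.

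Among the lower genes, secreted proteins of the SCP-like (*scl*) family recurred. Of 9 compared *scl* genes, grouped after their values were seen, 8 had changes below -1 and 3 passed the cutoff as lower, while *scl-10* was higher with 2.37. Over all compared genes 1.43% were lower. Only 4 of the 9 had at least 5 FPKM at both times, 2 of them lower, so that the filter itself favours a change. The other 16 of the 25 *scl* genes were under 5 FPKM at both times. *scl-24* (V:17486405-17487179) had 9.02 FPKM at 15 hr and 114.5 FPKM at 9.5 hr. *scl-5* (IV:13063980-13065134) had 7.16 FPKM at 15 hr and 89.6 FPKM at 9.5 hr. The cathepsin-like protease gene *cpr-2* had 2.01 FPKM at 15 hr and 27.6 FPKM at 9.5 hr. C01G10.6, F07C4.6 and F46F2.3 had changes of -3.26, -3.21 and -3.09, the last at 23.6 FPKM at 15 hr and 208 FPKM at 9.5 hr. Y48G1BL.6, F32H2.6 and an entry named only Monooxygenase had changes of -3.19, -3.05 and -3.23.

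Some genes were listed at 0 at one time. Of genes with at least 5 FPKM at 9.5 hr, 68 were listed at 0 at 15 hr, and of genes with at least 5 FPKM at 15 hr, 12 were listed at 0 at 9.5 hr. Zeros were more common at 15 hr in general. Over all named entries, 1293 were listed at 0 at 15 hr and 332 at 9.5 hr in hermaphrodites. In males these numbers were 1258 at 15 hr and 537 at 9.5 hr. Most of the 68 were low and short: 59 were under 20 FPKM at 9.5 hr, and 54 had loci under 500 bp. In males, 42 of them were also listed at 0 at 15 hr, 16 of these at both times. F54D12.4 had the highest level of the 68, with 57.9 FPKM at 9.5 hr, although males had 42.4 FPKM at 15 hr and 58.2 FPKM at 9.5 hr. T11F9.14 and *nspa-9* had 42.3 and 41.7 FPKM at 9.5 hr in hermaphrodites and were listed at 0 in males at both times. H39E20.1, M162.6 (a pseudogene in current RefSeq) and C25D7.9 followed with 34.1, 30.97 and 28.7 FPKM at 9.5 hr. Of the 12 listed at 0 at 9.5 hr, *nspb-7* had 104.5 FPKM at 15 hr, and Y65A5A.3, *nspb-4*, *nspb-1*, Y32H12A.9 and F35F10.14 had between 10.98 and 16.25 FPKM.

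Whole males passed through the same window with largely similar changes. Among 12141 genes compared in males, 496 were higher at 15 hr past the cutoff (4.09%) and 154 lower (1.27%). Of the 514 genes higher in hermaphrodites, 391 were also called higher in males (76.1%), which is 78.8% of the male list. For lower genes the shared part was smaller, 46 of 178 (25.8%), which is 29.9% of the male list. The median male change of the 178 was -1.37, against -2.76 in hermaphrodites, and that of the 514 was 2.96, against 3.08. Both sets were chosen by their hermaphrodite change, so that a median nearer to no change in males follows in part from the choice. These medians therefore do not measure a difference between the sexes. Across the 11877 genes compared in both sexes, Pearson's r between the changes was 0.83 and Spearman's rho 0.73. This describes genes, which are not independent replicates, and both sexes of a time were normalised in the same run. In 89 genes the hermaphrodite change exceeded the male change by at least 2, and in 41 it fell short by at least 2, and none of these differences was tested.

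Over all 107 collagens compared in hermaphrodites the sexes were alike, with a median change of 2.21 in each and 57 higher in hermaphrodites and 56 in males. The body-shape collagens above and the furrow collagens, both picked after their values were seen, differed more. *rol-6* had a change of 6.53 in hermaphrodites and 3.98 in males, and *dpy-13* had 6.51 in hermaphrodites and 4.10 in males. At 15 hr the sexes were close, with 197 FPKM of *rol-6* in hermaphrodites and 235 FPKM in males, whereas at 9.5 hr hermaphrodites had 1.14 FPKM and males 13.98 FPKM. *sqt-1* likewise had 255 FPKM in hermaphrodites and 274 FPKM in males at 15 hr, and 5.93 FPKM in hermaphrodites and 49.2 FPKM in males at 9.5 hr. The furrow collagens had a median change of 1.42 in hermaphrodites and 0.25 in males. *dpy-7*, for example, had 26.8 FPKM in hermaphrodites and 68.4 FPKM in males at 9.5 hr. *lin-42* showed the same order, with a change of 1.74 in hermaphrodites and 0.49 in males and 9.5 hr levels of 16.5 and 52.95 FPKM in the same order of sexes. Whole-list medians were 2.42 in hermaphrodites and 2.27 in males for hedgehog-related genes, and 0.98 in hermaphrodites and 0.86 in males for motor neuron determinants. Other lists were less alike. The medians were 0.88 in hermaphrodites and 0.30 in males for moulting genes, and -0.39 in hermaphrodites and -0.01 in males for DNA replication. For germline genes they were 0.01 in hermaphrodites and 0.62 in males.

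The other differences between the sexes included small peptides and genes of low level. *fipr-9* had 108 FPKM at 15 hr and 4.77 FPKM at 9.5 hr in hermaphrodites, with changes of 4.24 in hermaphrodites and 0.92 in males. *nspb-8* had changes of 5.91 in hermaphrodites and 2.85 in males. The genes past the cutoff in hermaphrodites whose male change lay farthest below were Y32H12A.9, C18B12.1, T20D4.16, C01G10.18, Y65A5A.3 and W04H10.1, all at most 26.3 FPKM at 15 hr in hermaphrodites. Those whose male change lay farthest above were H39E20.1, M162.6, Y73B3A.8, T11F9.14, F54D12.4 and *nspa-9*, all listed at 0 in hermaphrodites at 15 hr. Pharyngeal and coelomocyte genes had higher medians in hermaphrodites than in males, at 0.27 in hermaphrodites and -0.60 in males for the 17 pharynx genes, and 0.69 in hermaphrodites and -0.01 in males for the 7 coelomocyte genes. The part of these tissues in other differences between the sexes was not tested.

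**Figure D5:**
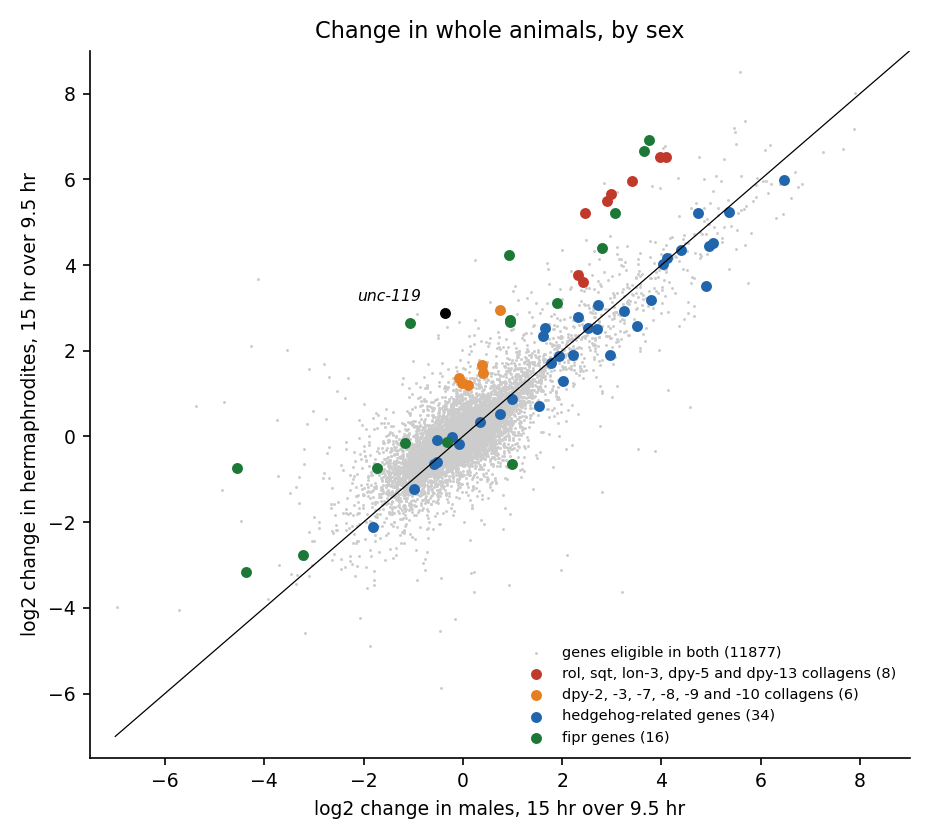
Change of each gene compared in both sexes, hermaphrodites (vertical) against males (horizontal), both as log2 of 15 hr over 9.5 hr, with the line of equal change in black and 4 sets coloured: *rol*, *sqt*, *lon-3*, *dpy-5* and *dpy-13* collagens, furrow collagens, hedgehog-related genes and *fipr* genes. Both collagen sets lie above the line (medians of 5.58 in hermaphrodites and 2.94 in males for the first), the hedgehog-related genes lie along it, and *unc-119* stands apart at 2.87 in hermaphrodites.

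The whole animals were set beside gonadal cells of hermaphrodites, sorted from animals with the array at both times, for the same compared genes. Motor neuron determinants had a median change of 0.98 in whole animals and -0.04 in gonadal cells, and *ceh-12* had 74.5 FPKM at 15 hr in whole animals, against 3.13 FPKM at 15 hr in gonadal cells. Their median levels in gonadal cells were 3.46 FPKM at 15 hr and 4.46 FPKM at 9.5 hr. These are under the minimum of 5 FPKM, which was applied to whole animals only, and changes of such low genes are understated. DNA replication genes had a median of -0.39 in whole animals and 0.37 in gonadal cells. Ribosomal protein genes were lower at 15 hr in both, with medians of -0.61 in whole animals and -0.73 in gonadal cells. Collagens had positive medians in both, 2.21 in whole animals and 0.99 in gonadal cells, and *dpy-13* had 362 FPKM at 15 hr in whole animals, against 135 FPKM at 15 hr in gonadal cells. *unc-119*, with the array present at both times, had 107 FPKM at 15 hr and 269 FPKM at 9.5 hr in gonadal cells. None of these differences was tested.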

How the data were processed

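The authors dissociated larvae, depleted ribosomal RNA, made TruSeq libraries without poly(A) selection and deposited, for each time, a Cuffdiff table with 1 FPKM per gene and group, estimated from all its samples together. Per the labels' processing notes the tools were CASAVA 1.8, Picard 1.56, TopHat 1.4.1 and Cuffdiff 2.1.1 on build ce10. The use made of Picard is not given in the sources used here. Read depth is unknown. The authors' fold changes, p-values and q-values were not used.

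Groups were matched by gene with pandas 2.3.3. The change used a pseudocount of 1 FPKM, a minimum of 5 FPKM at one time and a cutoff of 2. The computation was run on simulated levels without noise, into which known changes were put by the same formula. Their recovery was fixed in advance and says nothing about noisy or low levels. One entry without a gene name was left out. Genes were named by rule: the 12 highest and 12 lowest changes with at least 1 FPKM at both times, the 5 largest gains and losses in FPKM, the 4 largest changes of each list, the 6 farthest from the male change each way, the 6 highest listed at 0 at either time, and strain genes. Other genes named, and groups marked as such, were chosen after their values were seen. The members and lists were chosen with earlier results of these data known. Alternatives were other pseudocounts, minimums, cutoffs and scalings, and leaving out merged entries. RefSeq (WBcel235) was used for names only.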

Additional observations from a re-analysis of the deposited data

How the results depend on the processing

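No paired analysis was possible because a single pooled value was available for each group, and leaving out replicates could not be run for the same reason. Against 514 higher and 178 lower genes, a pseudocount of 5 FPKM gave 316 higher and 45 lower, a pseudocount of 0.1 FPKM gave 268 lower, at least 5 FPKM at both times gave 144 higher and 39 lower, at least 20 FPKM at one time gave 65 lower, a log2 cutoff of 1 gave 1210 higher and 870 lower, and centring on ribosomal protein genes gave 830 higher and 105 lower. In an alternative chosen after seeing the data, 391 higher and 46 lower genes were past the cutoff in males too. Genes whose hermaphrodite change was above or below the male change by at least 2 numbered 28 and 14 with a pseudocount of 5 FPKM, against 89 and 41. The median change of collagens, 2.21, was 1.55 with a pseudocount of 5 FPKM, 0.12 with a minimum of 1 FPKM and 1.19 with 5 FPKM at both times. That of hedgehog-related genes, 2.42, was 1.63, 0.75 and 0.16 under the same settings. That of antimicrobial and stress peptides was -0.59 with a minimum of 1 FPKM. The cause of these shifts was not tested. Of the values run under the alternatives, 485 of 592 values of named genes and 155 of 162 list medians differed by less than 1.5 times. Centring on ribosomal protein genes was not among the settings counted for these values. It shifts every change by the size of their median (-0.61), which is more than the 1.5-fold limit (0.585 in log2). Read depth is unknown, so the precision of low levels cannot be given.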

Other observations

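Genes higher at 15 hr were spread over all chromosomes. They made up 5.71% of the 1943 compared genes on X, 5.02% on V and 4.64% on II, against 2.44% on I, and the median change of X-linked genes was 0.09, against -0.04 on I. Lower genes made up 2.57% of the 2372 compared genes on V and 0.814% on I. The median locus length was 1907.5 bp for higher genes and 766.5 bp for lower genes, against 2781 bp for all compared genes. By RefSeq annotation, 484 of the 514 higher and 150 of the 178 lower genes were protein-coding, against 11676 of all 12489 compared genes. Names without a RefSeq match numbered 25 among the higher genes, 22 among the lower and 688 among all compared. The sex determination gene *her-1*, which promotes male development, had 2.28 FPKM at 15 hr and 6.68 FPKM at 9.5 hr in hermaphrodites, against 12.3 FPKM at 15 hr and 4.004 FPKM at 9.5 hr in males. *ehn-3*, whose promoter drives the array, was under 5 FPKM at both times in whole hermaphrodites, with 0.592 FPKM at 15 hr and 1.07 FPKM at 9.5 hr.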
